A study of Bos taurus with 9 samples.

Results

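The genes described here are 6 matrix-degrading metalloproteinases, MMP1, MMP2, MMP3, MMP14, ADAMTS4 and ADAMTS5, and 4 tissue inhibitors of metalloproteinases, TIMP1, TIMP2, TIMP3 and TIMP4. They were chosen by name and not by a threshold on their values, but with earlier results of these data known. Every probe set whose single gene symbol was one of these names was taken. This gave 20 of the 24016 probe sets tested, 11 for the proteases and 9 for the TIMPs, and 10 of the 9155 genes with a symbol. All 10 genes were measured and no filter on low signal was applied. Expression was measured on bovine oligonucleotide arrays, 1 array per sample, with 3 arrays in each of 3 groups. The groups were marrow mesenchymal stem cells (MSCs, adherent stromal cells able to form cartilage) taken right after encapsulation in agarose (day 0), MSCs cultured in agarose for 28 days, and articular chondrocytes cultured in agarose for the same 28 days. Both day 28 groups were kept in defined medium with 10 ng/mL TGF-beta3, a growth factor that drives MSCs towards cartilage. All cells came from 3 juvenile calves aged 3 to 6 months, and each calf gave 1 array to each group. No group was kept for 28 days without TGF-beta3, so the factor and the time in culture cannot be told apart. Chondrocytes before culture were not analysed here.

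Cartilage is a network of type II collagen filled with aggrecan, and its turnover is set by secreted and membrane-bound zinc proteases. Collagenases cut the collagen triple helix, gelatinases and stromelysin cut denatured collagen and other matrix proteins, and the ADAMTS aggrecanases cleave the aggrecan core protein. These enzymes are made as inactive precursors, and TIMPs block the active enzymes by binding to their catalytic site, so transcript levels give neither activity nor protein amount.

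Values are log2 signal on the deposited scale, differences are in log2 signal with their standard error, and n = 3 arrays per group throughout. A difference was called when its Benjamini-Hochberg adjusted p from limma, over all 24016 probe sets, was under 0.05. The number of arrays limits the precision. The main fit did not pair arrays by calf. Its p-values measure the spread between the calves' arrays within groups, and not the spread of differences within calves. Where a gene had several probe sets, the one with the highest mean over the 9 arrays stood for the gene. Levels of different probe sets are not comparable with each other. Detection and saturation were not checked, so a fold against a group of low signal is a ratio of signals and may understate the change. Among the 10 genes this bears most on MMP1 in day 28 MSCs, whose mean of 2.52 lay at percentile 25.1 of the array, and on ADAMTS5 in chondrocytes, whose mean of 2.94 lay at percentile 30.5. In such bulk samples, fewer cells of a type and less RNA per cell cannot be told apart.

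The hybridisation controls averaged 10.81 and 10.85 on the day 28 MSC and chondrocyte arrays of donor 3, at least 1.14 below each of the other 7, so donor 3 and low controls cannot be told apart in the day 28 groups. The difference between 3′ and 5′ ends of 6 control transcripts was 1.34 ± 0.23 (SD, n = 3) for undifferentiated cells, against 1.81 ± 0.20 for MSCs after culture and 1.81 ± 0.19 for chondrocytes. All 8 measured chondrocyte markers of 11 listed were higher in both day 28 groups than in day 0 MSCs. Their summed signal was 8.89 to 9.65 in day 0 MSCs, 15.12 to 15.26 in day 28 MSCs and 15.16 to 15.27 in chondrocytes. The summed signal of 11 stromal markers was 11.42 to 12.01, 10.69 to 10.77 and 11.13 to 11.53 in these groups. For 8 of 10 listed blood and macrophage markers it was 9.08 to 9.67, 8.47 to 8.63 and 8.81 to 9.12. The sums for 3 of 7 osteoclast markers were 12.52 to 13.13, 11.29 to 11.49 and 11.37 to 11.64. For 8 endothelial markers they were 7.34 to 7.93, 8.47 to 8.64 and 8.84 to 9.08, for 6 of 7 muscle markers 11.33 to 11.47, 11.33 to 11.95 and 10.76 to 11.06, and for 4 of 6 osteoblast markers 12.75 to 12.86, 12.95 to 13.20 and 12.68 to 12.91. Each sum is the log2 of the added antilog signals, so the brightest marker of a list weighs most. Over 28 days in MSCs, the median marker difference was -0.24 (stromal), -0.74 (blood and macrophage), -0.36 (osteoclast), 0.02 (endothelial), -0.08 (muscle) and 0.63 (osteoblast). The part of these shifts in the results for proteases and TIMPs was not tested.

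The first comparison, day 28 against day 0 MSCs, addresses how the protease system changed as MSCs underwent cartilage differentiation. Of the 10 genes, MMP1, MMP3, MMP14, ADAMTS5, TIMP1 and TIMP2 fell, TIMP4 rose, and MMP2, ADAMTS4 and TIMP3 were not called. Over all genes, 21% fell and 13.5% rose. The median difference was -1.36 for the 10 genes and -0.11 for all genes. The second comparison, chondrocytes against MSCs at day 28, addresses how the differentiated MSCs stood against native cartilage cells in the same culture. There MMP1, MMP3, ADAMTS4, TIMP1 and TIMP2 were higher in chondrocytes and 0 of the 10 were called lower by limma, nor was any lower at an unadjusted p under 0.05, where 8.35% of all genes were higher and 4.81% lower. The medians were 0.71 for the 10 genes and -0.02 for all genes. In the third comparison, chondrocytes at day 28 against day 0 MSCs, ADAMTS4 and TIMP4 were higher and MMP14, ADAMTS5 and TIMP3 lower, against 15.1% of all genes higher and 20.9% lower. The medians were -0.17 for the 10 genes and -0.12 for all genes. Any pair of these comparisons shares a group of arrays, so they are not independent of each other. By probe set, 1 of 20 was higher and 12 lower in the first comparison (14.6% and 15.6% of all probe sets), 8 higher and 0 lower in the second (6.27% and 4.06%), and 2 higher and 6 lower in the third (15.1% and 15.9%). Without overlap between the arrays of the groups compared, 3 of the 20 were higher and 12 lower in the first comparison (19.3% and 22.9% of all probe sets), 8 higher and 0 lower in the second (13.3% and 13.5%), and 4 higher and 8 lower in the third (21% and 25.7%).

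**Figure D1:**
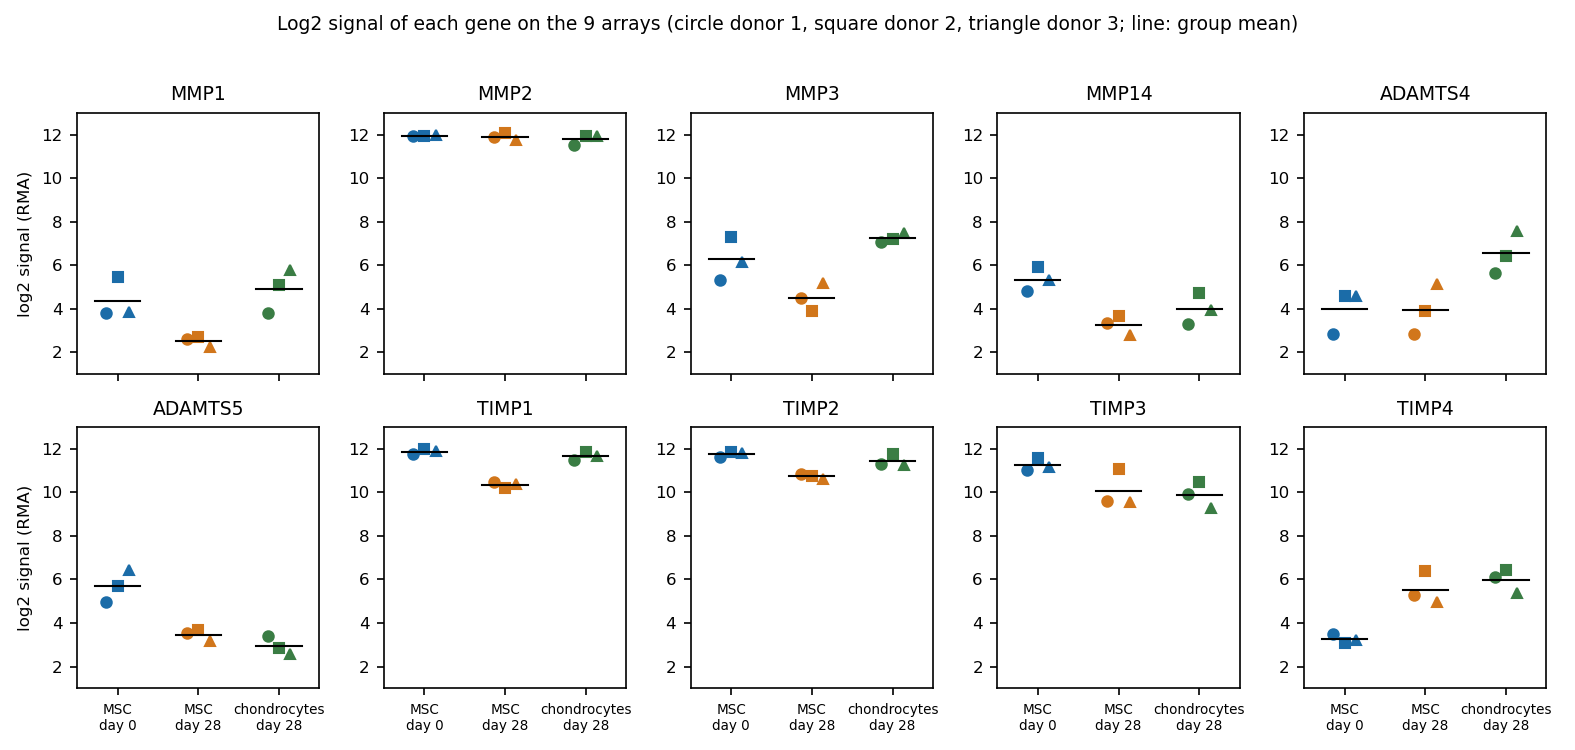
Log2 signal (vertical axis, 1 scale for all panels) of the highest-mean probe set of each of the 10 genes on the 9 arrays, by group (horizontal axis), with the donor shown by the symbol and the group mean by a line. TIMP1 lay between 10.19 and 10.48 in day 28 MSCs and above 11.4 in both other groups, whereas MMP2 lay between 11.55 and 12.09 on every array.

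MMP1, the interstitial collagenase that cuts fibrillar collagen, was lowest in day 28 MSCs. Its single probe set gave 3.82, 5.44 and 3.86 in day 0 MSCs of donors 1, 2 and 3, then 2.62, 2.69 and 2.26 in day 28 MSCs, and 3.82, 5.10 and 5.79 in chondrocytes. All day 28 MSC arrays were below all arrays of the other groups, which overlapped each other, and donor 2 was the high array at day 0. The fall over 28 days was -1.85 ± 0.54 (3.61-fold lower, limma adjusted p = 0.0280), and chondrocytes were higher than day 28 MSCs by 2.38 ± 0.54 (5.21-fold, limma adjusted p = 0.0228). Chondrocytes and day 0 MSCs differed by 0.53 ± 0.54 (95% interval -0.68 to 1.74, limma adjusted p = 0.506). Both calls for MMP1 were lost when certain single arrays were left out, though the differences kept their sign. The fall was lost without the day 0 array of donor 2 (-1.32, adjusted p = 0.0836). It was also lost without any 1 of the 3 day 28 MSC arrays (-1.94 to -1.72, adjusted p 0.0559 to 0.0745). The chondrocyte difference was not called without any 1 of the day 28 MSC arrays or the chondrocyte array of donor 2 or 3. It was then 1.94 to 2.46 (adjusted p 0.0533 to 0.0836). Without both low-control arrays the values were -1.72 (adjusted p = 0.0582) and 1.81 (adjusted p = 0.124).

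MMP2, the gelatinase that MMP14 activates at the cell surface, had the smallest range of group means among the 10 genes. It read 11.93, 11.94 and 11.98 in day 0 MSCs, 11.92, 12.09 and 11.75 in day 28 MSCs, and 11.55, 11.95 and 11.94 in chondrocytes. The 3 groups overlapped, and the mean of each lay at about the 99th percentile of the array (99.1, 99.1 and 98.9). The differences were -0.03 (95% interval -0.38 to 0.32), -0.11 (-0.45 to 0.24) and -0.13 (-0.48 to 0.21) in the 3 comparisons, with limma adjusted p of 0.912, 0.761 and 0.558. These intervals leave out changes of 0.5 or more on the log2 scale in either direction, before any adjustment for the number of probe sets.

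MMP3, stromelysin 1, cuts proteoglycans and activates other MMP precursors. Its brightest probe set gave 5.34, 7.32 and 6.17 in day 0 MSCs, 4.49, 3.90 and 5.18 in day 28 MSCs, and 7.08, 7.19 and 7.47 in chondrocytes. Chondrocytes were all above day 28 MSCs, and day 28 MSCs were all below day 0 MSCs, though the day 28 array of donor 3 (5.18) lay close to the day 0 array of donor 1 (5.34). Chondrocytes exceeded day 28 MSCs by 2.73 ± 0.47 (6.62-fold, limma adjusted p = 0.00659), the largest difference among the 10 genes in that comparison. That call was lost without all arrays of donor 1 (2.79, adjusted p = 0.0613). The fall in MSCs was -1.76 ± 0.47 (3.38-fold, limma adjusted p = 0.0195). It was lost when the day 28 MSC array of donor 1 (adjusted p = 0.0509) or donor 2 (0.0677) was left out, and it was -0.93 (adjusted p = 0.148) without all arrays of donor 2. Chondrocytes minus day 0 MSCs was 0.97 ± 0.47 (adjusted p = 0.154). That value became 1.49 (adjusted p = 0.0236) without the day 0 array of donor 2. The other 2 MMP3 probe sets had group means of 1.70 to 3.00, in the lower 31.3% of the array, and were called in no comparison, with differences of -0.29 and -0.46 over 28 days and 0.51 and 0.37 between chondrocytes and day 28 MSCs. The MMP3 calls therefore hold for 1 of 3 probe sets. With the mean of the 3 probe sets the fall in MSCs was -0.84 (adjusted p = 0.0660).

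In the RefSeq order of protein-coding genes on the ARS-UCD2.0 assembly, MMP13, MMP12, MMP3 and MMP1 follow each other. MMP13, the collagenase that acts most on type II collagen, belonged to the wider list of MMPs and not to the 10 genes. It read 4.93, 7.95 and 5.02 in day 0 MSCs, 4.54, 3.20 and 4.64 in day 28 MSCs, and 3.08, 2.91 and 4.0 in chondrocytes. MMP13 was higher in day 0 MSCs of donor 2 than on any other array. Among the 3 day 0 arrays, MMP1 and MMP3 were also highest on that one, though each was higher still in chondrocytes of donor 3. The MMP13 difference was -1.84 ± 0.76 over 28 days in MSCs (limma adjusted p = 0.103), -0.80 ± 0.76 between chondrocytes and day 28 MSCs (adjusted p = 0.610), and -2.64 ± 0.76 between chondrocytes and day 0 MSCs (adjusted p = 0.0275). A second MMP13 probe set gave -2.31 in the last of these (adjusted p = 0.0711). MMP13 was named here after its values were seen, for its place beside MMP3 and MMP1.

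MMP14, the membrane-type collagenase that processes pro-MMP2 together with TIMP2, was high in day 0 MSCs and low in both day 28 groups. The brightest of its 3 probe sets gave 4.82, 5.92 and 5.31 in day 0 MSCs, 3.34, 3.67 and 2.79 in day 28 MSCs, and 3.29, 4.73 and 3.95 in chondrocytes. Every day 0 array was above every day 28 array, and the day 28 groups overlapped. MMP14 fell by 2.08 on the log2 scale over 28 days in MSCs (SE 0.40, 4.24-fold, limma adjusted p = 0.00390), and the other 2 probe sets gave -1.66 (adjusted p = 0.000720) and -0.93 (adjusted p = 0.00106). Chondrocytes were lower than day 0 MSCs by all 3 probe sets, at -1.36 (adjusted p = 0.0295), -1.41 (adjusted p = 0.00181) and -0.90 (adjusted p = 0.00134). Chondrocytes and day 28 MSCs were not called apart, with 0.72 ± 0.40 (95% interval -0.18 to 1.63, adjusted p = 0.322) by the brightest probe set and 0.26 and 0.04 by the others. For the brightest probe set the chondrocyte difference from day 0 was lost without the day 0 array of donor 2 or 3 or the chondrocyte array of donor 1 or 3 (adjusted p 0.0660 to 0.102). It was also lost without both low-control arrays (-1.34, adjusted p = 0.0690), with low controls as a batch block (-1.23, adjusted p = 0.0596) and after centring on ribosomal protein genes (-1.16, adjusted p = 0.0503). Its fall in MSCs was lost without all arrays of donor 3 (-1.86, adjusted p = 0.0576). For the other 2 probe sets, no alternative that kept them in the test lost either call.

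Both aggrecanases were measured, ADAMTS4 by 1 probe set and ADAMTS5 by 2. ADAMTS4, the inducible aggrecanase in many cell types, read 2.84, 4.61 and 4.61 in day 0 MSCs, 2.86, 3.92 and 5.14 in day 28 MSCs, and 5.66, 6.44 and 7.57 in chondrocytes. All 3 chondrocyte arrays were above all 6 MSC arrays, and the MSC groups overlapped over most of their range. ADAMTS4 was higher in chondrocytes than in day 28 MSCs by 2.59 ± 0.70 (6.01-fold, limma adjusted p = 0.0471) and than in day 0 MSCs by 2.54 ± 0.70 (5.82-fold, adjusted p = 0.0219). Its change in MSCs was -0.05 ± 0.70 (95% interval -1.62 to 1.53, adjusted p = 0.972), an interval too wide to set a narrow limit on it. The first of these calls was at the edge of the threshold. It was lost without the day 0 array of donor 2 or 3, the day 28 MSC array of donor 1 or 2, or any 1 chondrocyte array (2.03 to 3.04, adjusted p 0.0520 to 0.133), and without both low-control arrays (2.67, adjusted p = 0.0521). The difference from day 0 MSCs was lost without the day 0 array of donor 1 or the chondrocyte array of donor 2 or 3 (adjusted p 0.0519 to 0.0777).

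ADAMTS5, the main aggrecanase of mouse cartilage, was highest in day 0 MSCs. Its brighter probe set gave 4.95, 5.71 and 6.44 in day 0 MSCs, 3.54, 3.67 and 3.15 in day 28 MSCs, and 3.39, 2.83 and 2.59 in chondrocytes. Every day 0 array was above every day 28 array. In each donor the chondrocyte value was below the day 28 MSC value, though the groups overlapped. ADAMTS5 fell by 2.25 in MSCs (SE 0.36, 4.75-fold, limma adjusted p = 0.00145), the largest fall among the 10 genes, and was lower in chondrocytes than in day 0 MSCs by -2.77 ± 0.36 (6.80-fold, adjusted p = 0.000476). The second probe set gave -1.74 (adjusted p = 0.00435) and -2.23 (adjusted p = 0.00122). Chondrocytes against day 28 MSCs gave -0.52 ± 0.36 (95% interval -1.32 to 0.29, adjusted p = 0.443) and -0.49 by the second probe set (adjusted p = 0.449). ADAMTS1, the next gene to ADAMTS5 in the RefSeq order and another ADAMTS protease able to cleave aggrecan and versican, is given with the wider lists.

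**Figure D2:**
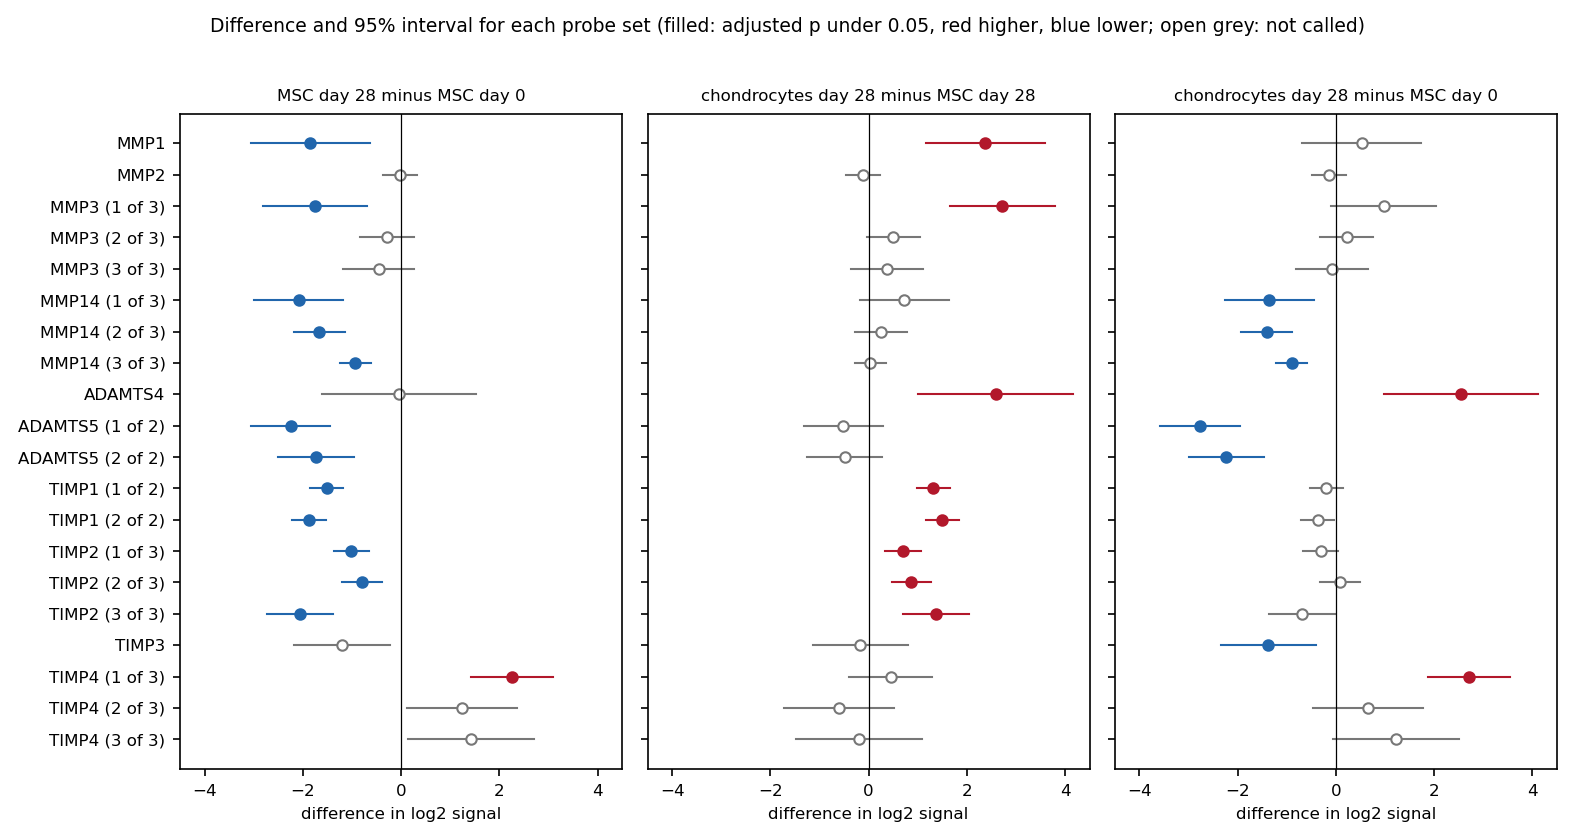
Difference in log2 signal (horizontal axis) with its 95% interval for each of the 20 probe sets in the 3 comparisons, with probe sets of a gene numbered from the highest mean down. Filled points passed an adjusted p of 0.05. The 2 TIMP1 and 3 TIMP2 probe sets lie to the left of 0 in the first panel and to the right in the second, and the ADAMTS5 probe sets lie to the left of 0 in all 3 panels.

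Among the inhibitors, TIMP1, a broad inhibitor of secreted MMPs, read 11.75, 11.98 and 11.89 in day 0 MSCs, 10.48, 10.19 and 10.41 in day 28 MSCs, and 11.50, 11.88 and 11.65 in chondrocytes. The day 28 MSC arrays lay at least 1 log2 unit below every other array, and day 0 MSCs and chondrocytes overlapped. TIMP1 fell by 1.51 in MSCs (SE 0.15, 2.86-fold, limma adjusted p = 0.000114) and was higher in chondrocytes than in day 28 MSCs by 1.31 ± 0.15 (2.49-fold, adjusted p = 0.000794). The second probe set gave -1.88 (adjusted p = 4.08e-05) and 1.5 (adjusted p = 0.000390). No alternative and no array left out lost any of these 4 calls. Chondrocytes minus day 0 MSCs was -0.20 ± 0.15 (adjusted p = 0.356) and, by the second probe set, -0.37 ± 0.15 (adjusted p = 0.0914) with groups that did not overlap.

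TIMP2, which inhibits MMPs and also links pro-MMP2 to MMP14, followed the same order. Its brightest probe set read 11.63, 11.84 and 11.79 in day 0 MSCs, 10.86, 10.73 and 10.62 in day 28 MSCs, and 11.30, 11.74 and 11.28 in chondrocytes. Day 28 MSCs were below both other groups without overlap. The fall in MSCs was -1.02 ± 0.16 (2.02-fold, limma adjusted p = 0.00139), with -0.80 (adjusted p = 0.00883) and -2.05 (adjusted p = 0.000887) by the other 2 probe sets. Chondrocytes exceeded day 28 MSCs by 0.70 ± 0.16 (1.63-fold, adjusted p = 0.0236), 0.87 (adjusted p = 0.0155) and 1.37 (adjusted p = 0.0196). No probe set was called between chondrocytes and day 0 MSCs (-0.31, 0.08 and -0.68, adjusted p 0.177, 0.790 and 0.115), and the 3 did not have the same sign. The chondrocyte call by the brightest probe set was lost without the day 28 MSC array of donor 2 or 3 or the chondrocyte array of donor 2 (adjusted p 0.0586 to 0.0765). By the second it was lost without the chondrocyte array of donor 2 or 3 (adjusted p 0.0545 and 0.0531), and by the third without the day 28 MSC array of donor 1 or the chondrocyte array of donor 2 or 3 (adjusted p 0.0608 to 0.0766). Without both low-control arrays the brightest gave 0.73 (adjusted p = 0.0693).

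TIMP3, the matrix-bound TIMP that also inhibits aggrecanases and ADAM sheddases, read 11.03, 11.60 and 11.19 in day 0 MSCs, 9.59, 11.07 and 9.54 in day 28 MSCs, and 9.95, 10.46 and 9.28 in chondrocytes. Donor 2 was the highest array in each group, and its day 28 MSC value lay between the day 0 values of donors 1 and 3. TIMP3 was lower in all 3 donors over 28 days, by a mean of -1.20 ± 0.43 (limma adjusted p = 0.0627), and with the donor as a block the standard error was 0.25 and the adjusted p 0.00715. Without the day 28 MSC array of donor 2 the difference was -1.70 (adjusted p = 0.00607). Chondrocytes were lower than day 0 MSCs by -1.38 ± 0.43 (2.60-fold, adjusted p = 0.0371). That call was lost when any 1 day 0 array or the chondrocyte array of donor 1 or 3 was left out (adjusted p 0.0658 to 0.123). It was also lost with each array centred on its ribosomal protein genes (-1.18, adjusted p = 0.0561) and without both low-control arrays (-1.07, adjusted p = 0.103). Chondrocytes and day 28 MSCs differed by -0.17 ± 0.43 (95% interval -1.14 to 0.80, adjusted p = 0.876).

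TIMP4, the TIMP of narrowest tissue range, was the one inhibitor that rose. Its brightest probe set read 3.52, 3.09 and 3.22 in day 0 MSCs, 5.26, 6.37 and 4.97 in day 28 MSCs, and 6.13, 6.43 and 5.40 in chondrocytes. Every day 28 array was above every day 0 array, and the day 28 groups overlapped. TIMP4 rose by 2.26 ± 0.37 in MSCs (4.78-fold, limma adjusted p = 0.00177) and was higher in chondrocytes than in day 0 MSCs by 2.71 ± 0.37 (6.54-fold, adjusted p = 0.000672). No alternative that kept this probe set in the test lost either call. Chondrocytes against day 28 MSCs gave 0.45 ± 0.37 (95% interval -0.39 to 1.29, adjusted p = 0.538), and -0.59 and -0.19 by the other 2 probe sets. The other 2 probe sets had the same sign over 28 days without being called, at 1.24 (adjusted p = 0.0923) and 1.42 (adjusted p = 0.0935). In both, the day 28 MSC array of donor 2 was the highest, at 5.93 and 5.13, with 4.0 and 3.82 or 2.96 and 2.69 in the other donors. With the donor as a block the last TIMP4 probe set was called in MSCs (adjusted p = 0.0154) and between chondrocytes and day 0 MSCs (1.22, adjusted p = 0.0276, against 0.139 without the block). The second probe set gave 0.64 between chondrocytes and day 0 MSCs (limma adjusted p = 0.371). Without the block, the TIMP4 calls therefore held for 1 of 3 probe sets.

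In the RefSeq order, TIMP1, TIMP3 and TIMP4 each stand beside a synapsin gene (SYN1, SYN3 and SYN2). SYN1 had a probe set, and it differed by -1.10 ± 0.25 over 28 days in MSCs (limma adjusted p = 0.00836) and 0.51 between chondrocytes and day 28 MSCs. SYN1 was looked at as a neighbour of TIMP1.

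The proteases were weighed against the inhibitors with each gene set against its own mean over the 9 arrays, so that no probe set was compared in level with another. The mean deviation of the 6 proteases minus that of the 4 TIMPs was -0.20, 0.86 and 0.54 in day 0 MSCs of donors 1, 2 and 3. It was -0.59, -0.93 and -0.17 in day 28 MSCs, and -0.25, -0.09 and 0.82 in chondrocytes. The groups overlapped: the day 0 array of donor 1 and the chondrocyte array of donor 1 lay within the range of day 28 MSCs. Within donors 1, 2 and 3, the score changed by -0.39, -1.79 and -0.71 over 28 days in MSCs, lower in 3 of 3. Chondrocytes minus day 28 MSCs of the same donor gave 0.34, 0.85 and 0.99, higher in 3 of 3. Group means were 0.40 ± 0.54 (SD, n = 3), -0.56 ± 0.38 and 0.16 ± 0.58. The proteases alone averaged 0.46 ± 0.61, -0.88 ± 0.13 and 0.42 ± 0.39, and all 3 day 28 MSC arrays (-1.03, -0.83 and -0.78) were below the other 6 (from -0.20). The TIMPs alone averaged 0.05 ± 0.08, -0.31 ± 0.37 and 0.26 ± 0.36, with overlap between groups. In the same donor the TIMPs were lower after 28 days in MSCs, by -0.43, -0.04 and -0.64, and higher in chondrocytes than in day 28 MSCs, by 0.67, 0.54 and 0.52. This score was given no test. It gives each transcript equal weight and measures no enzyme activity. Over 28 days in MSCs, TIMP4 was higher and the other TIMPs lower, so the fall of the score depended on TIMP4.

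**Figure D3:**
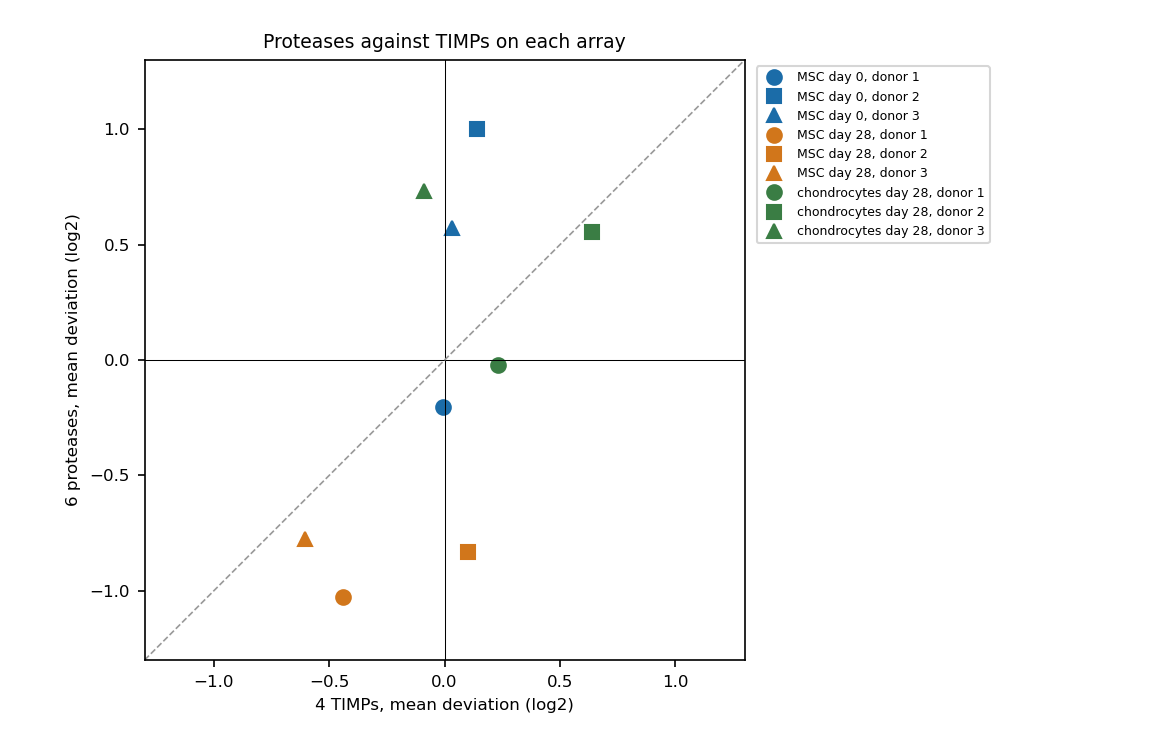
Mean deviation of the 6 proteases (vertical axis, log2) against that of the 4 TIMPs (horizontal axis, log2) on each of the 9 arrays, each gene taken against its own mean over all arrays, with colour for the group, symbols for donors and equal deviations on the dashed line. The 3 day 28 MSC arrays lie lowest, at -1.03 to -0.78 on the protease axis.

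The balance depended on which genes stood for it. The change in MSCs was -0.97 with the brightest probe set per gene and -0.41 with the mean of all probe sets. The difference between chondrocytes and day 28 MSCs was 0.72. It was 0.10 without MMP1 and MMP3, 0.13 without MMP1 and ADAMTS4 and 0.046 without MMP3 and ADAMTS4, so leaving out any 2 of these 3 genes removed most of it. The last 2 removals were chosen after seeing the data. Chondrocytes minus day 0 MSCs was -0.24, and it turned to 0.042 with the mean of all probe sets and to 0.11 without donor 2. Without MMP1 and ADAMTS4 it was -1.03, and without MMP3 and ADAMTS4 it was -1.14. Over 28 days in MSCs, TIMP1, TIMP2 and TIMP3 changed by -1.51, -1.02 and -1.20 and TIMP4 by 2.26. The TIMPs averaged -0.37, against -1.34 for the proteases. Between chondrocytes and day 0 MSCs, TIMP4 differed by 2.71 and the other TIMPs by -0.20, -0.31 and -1.38. The lower balance in these comparisons therefore depended on TIMP4, whose calls held for 1 of 3 probe sets. Over 28 days in MSCs, the changes of the other TIMPs lay on either side of the protease mean of -1.34. The balance without TIMP4 was not computed.

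Single enzyme and inhibitor pairs that are known to interact were set side by side in the same way. MMP14 minus TIMP2 was 0.30, 1.19 and 0.63 in day 0 MSCs, -0.41, 0.05 and -0.73 in day 28 MSCs, and -0.90, 0.09 and -0.22 in chondrocytes. All 3 day 0 arrays were above the 6 day 28 arrays. This held for the brightest probe sets. Over 28 days in MSCs the MMP14 probe sets gave -2.08, -1.66 and -0.93 and the TIMP2 probe sets -1.02, -0.80 and -2.05. The direction of the change in MMP14 minus TIMP2 therefore depended on which probe sets were paired. MMP2 minus TIMP2 was -0.28, -0.49 and -0.39 in day 0 MSCs, 0.47, 0.77 and 0.55 in day 28 MSCs, and -0.34, -0.38 and 0.08 in chondrocytes. Here day 28 MSCs stood above both other groups, since TIMP2 was low there and MMP2 differed little. ADAMTS5 minus TIMP3 averaged 0.81 ± 0.72 (SD, n = 3), -0.23 ± 0.70 and -0.58 ± 0.58. Its groups overlapped.

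Each gene was also matched with the 2 named genes whose centred values over the 9 arrays lay nearest, by root mean square difference in log2 signal. TIMP2 lay nearest to THOC6, an mRNA export factor, at 0.0992 and TMED3 at 0.109. The nearest to TIMP1 were NANS, a sialic acid synthase, at 0.173 and SMTN at 0.191. For MMP1 these were PMCH at 0.415 and BCKDHB at 0.527, and for MMP3 SKA3 at 0.441 and PMCH at 0.475. MMP14 lay nearest to CTSA, a lysosomal carboxypeptidase, at 0.291 and PERP at 0.327. For ADAMTS4 the distances were larger, with CIT, a kinase of cell division, at 0.610 and KNTC1, a kinetochore protein, at 0.642. The distance is not scaled by a gene's own spread, and ADAMTS4 also had the largest SD of the 10 genes over the arrays, at 1.57. ADAMTS5 was matched by PTPRK at 0.280 and ENO3 at 0.302, TIMP3 by ADD3 at 0.289 and TEN1 at 0.326, and TIMP4 by CSPG4, a chondroitin sulfate proteoglycan, at 0.369 and EFNA1 at 0.391. Because MMP2 varied little, with an SD of 0.155 over the arrays, its nearest genes ASPHD1 (0.0711) and UBE2L3 (0.0739) were other genes of little variation.

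The wider protease system was taken from 7 lists with 118 genes. Over all genes, 13.5% rose and 21% fell in MSCs. Between chondrocytes and day 28 MSCs, 8.35% of all genes were higher and 4.81% lower. The list counts below are to be read beside these shares, and no list was tested as a set. Of 18 other MMPs, 7 were measured. MMP9, MMP19 and MMP23 fell in MSCs, and MMP16, MMP19 and MMP23 were higher in chondrocytes than in day 28 MSCs. MMP9, the gelatinase of macrophages and osteoclasts, read 6.33, 7.60 and 3.89 in day 0 MSCs and 1.65 to 2.52 on all 6 day 28 arrays, a fall of -3.85 ± 0.76 (limma adjusted p = 0.00448). The summed signal of blood, macrophage and osteoclast markers given above also reached its highest values in day 0 MSCs. For blood and macrophage markers the day 0 range overlapped that of chondrocytes. Over 28 days in MSCs, 4 of 8 blood and macrophage markers were called lower and 1 higher, and 1 of 3 osteoclast markers lower. The part of such cells in the MMP9 difference was not tested. MMP19 had the order seen for TIMP1, with 5.89, 6.28 and 6.14, then 2.72, 2.81 and 2.86, then 5.13, 5.90 and 6.79. It fell by 3.31 in MSCs (adjusted p = 0.000149) and was higher in chondrocytes by 3.14 (adjusted p = 0.000653), and a second, dim probe set at 1.45 to 1.88 was called in neither. MMP16, a membrane-type MMP, was higher in chondrocytes than in day 28 MSCs by 2.13 ± 0.32 (adjusted p = 0.00322), with 8.99 to 9.04 in chondrocytes and 6.28 to 7.48 in MSCs of either day. For MMP23 the fall was -1.59 (adjusted p = 0.0181) and the chondrocyte difference 2.34 (adjusted p = 0.00784), and its second probe set was called in neither. MMP23 was named after its values were seen.

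Of 17 other ADAMTS proteases, 4 were measured. ADAMTS1 read 4.69, 6.39 and 7.81 in day 0 MSCs, 2.46, 2.55 and 1.61 in day 28 MSCs, and 4.88, 5.80 and 6.19 in chondrocytes. It fell by 4.09 in MSCs (SE 0.69, limma adjusted p = 0.00191) and was higher in chondrocytes by 3.42 ± 0.69 (adjusted p = 0.0139). The chondrocyte call was lost without the chondrocyte array of donor 2 (3.33, adjusted p = 0.0557) or both low-control arrays (2.83, adjusted p = 0.0970), and a second, dim ADAMTS1 probe set was not called. ADAMTS6 rose by 3.28 ± 0.31 in MSCs (adjusted p = 8.87e-05), from 3.80 to 4.94 at day 0 to 7.66 to 8.09 at day 28. ADAMTS2, the procollagen N-propeptidase, fell by 1.25 (adjusted p = 0.0463).

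All 5 measured ADAM sheddases were called in MSCs, 4 lower and 1 higher. ADAM10 fell by 1.51 (limma adjusted p = 0.000693) and ADAM19 rose by 1.57 (adjusted p = 0.000197). ADAM12 was the one called between chondrocytes and day 28 MSCs, at 1.21 (adjusted p = 0.00259).

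Of 10 measured genes for activation of metalloproteinases, 2 rose and 4 fell in MSCs, and 5 were higher in chondrocytes than in day 28 MSCs. PLAU, the urokinase that starts the plasmin cascade, read 9.24, 9.39 and 9.02, then 4.66, 5.95 and 6.26, then 9.04, 9.87 and 9.66. It fell by 3.59 in MSCs (SE 0.38, limma adjusted p = 0.000168) and was higher in chondrocytes by 3.90 ± 0.38 (adjusted p = 0.000348). PLAUR, its receptor, rose in MSCs by 2.31 (adjusted p = 0.000114) and was higher again in chondrocytes by 1.28 (adjusted p = 0.00786). FURIN, the convertase that activates MMP14 and the ADAMTS precursors, rose by 1.71 in MSCs (adjusted p = 8.11e-05), from 8.77 to 9.07 at day 0 to 10.48 to 10.91 at day 28. FURIN was named after its values were seen, and its second, dim probe set was not called (0.32, adjusted p = 0.162). CTSB, a lysosomal protease, fell by 0.69 in MSCs (adjusted p = 0.0150), a call lost without the day 0 array of donor 2 (-0.60, adjusted p = 0.0536).

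Of 11 genes listed under other inhibitors and clearance, 5 were measured, and in MSCs 1 rose and 2 fell. A place on this list, as for the serpins, does not show that a gene inhibits these proteases. SERPINF1 fell by 3.58 (limma adjusted p = 3.48e-06). SERPINE2, the protease nexin, differed by 0.99 (adjusted p = 0.0471), a call lost when any 1 of 7 single arrays was left out. Those were the day 0 arrays of donors 1 and 3, the day 28 MSC arrays of donors 1 and 2 and all 3 chondrocyte arrays (adjusted p 0.0645 to 0.146). RARRES1 was higher in chondrocytes than in day 28 MSCs by 3.53 ± 0.81 (adjusted p = 0.0244), with 5.89, 6.85 and 7.82 against 2.68, 2.59 and 4.70. That call was lost without the day 28 MSC array of donor 1 or 2 or the chondrocyte array of donor 2 or 3 (adjusted p 0.0784 to 0.0826).

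Among the substrates, 11 of 21 measured matrix genes rose and 3 fell in MSCs, and 1 was called between chondrocytes and day 28 MSCs. That gene was VCAN, the versican that aggrecanases and ADAMTS1 cleave, which read 10.29 to 10.43 in day 0 MSCs, 5.88 to 6.53 in day 28 MSCs and 8.45 to 9.31 in chondrocytes. VCAN fell by 4.16 in MSCs (limma adjusted p = 9.71e-06) and was higher in chondrocytes by 2.54 (adjusted p = 0.000370), and its other 2 probe sets were called in the same directions. ACAN, the aggrecan cleaved by ADAMTS4 and ADAMTS5, was not called between chondrocytes and day 28 MSCs, at -0.19 ± 0.40 (adjusted p = 0.850), while ADAMTS4 differed there by 2.59. COMP, a glycoprotein that several of these enzymes cut, rose by 8.50 in MSCs (adjusted p = 2.91e-08) and differed by 0.10 between chondrocytes and day 28 MSCs (adjusted p = 0.816).

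Of 24 measured inducers and transcription factors of protease genes, 4 rose and 7 fell in MSCs, and 5 were higher and 1 lower in chondrocytes than in day 28 MSCs. FOSB, an AP-1 subunit, fell by 6.36 in MSCs (limma adjusted p = 1.09e-07) and was higher in chondrocytes by 1.53 (adjusted p = 0.000908). FGF2 rose by 3.13 in MSCs (adjusted p = 2.79e-05). IL6 was higher in chondrocytes by 2.34 (adjusted p = 0.0263), a call lost without the day 28 MSC array of donor 1 or 3 or the chondrocyte array of donor 2 or 3 (adjusted p 0.0591 to 0.0909). IL1A, IL1B, TNF and OSM, cytokines that induce MMP and ADAMTS genes in cartilage, were called in no comparison, with IL1B at -1.09 over 28 days (adjusted p = 0.0590). ETS2 differed by -0.90 between chondrocytes and day 28 MSCs (adjusted p = 0.0458). That call was lost without any 1 array except the day 28 MSC array of donor 3 (adjusted p 0.0505 to 0.142).

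Between chondrocytes and day 0 MSCs, 20 genes of the 7 lists were higher and 11 lower. The lists held 7, 4, 5, 10, 5, 21 and 24 measured genes, and 15.1% of all genes were higher and 20.9% lower. The largest rises of their lists were MMP16 (2.05, limma adjusted p = 0.00128), ADAMTS6 (3.79, 3.60e-05), ADAM19 (1.58, 0.000187), PLAUR (3.59, 9.12e-06), RARRES1 (2.75, 0.0295), COMP (8.60, 2.04e-08) and FGF2 (3.64, 9.54e-06). The largest falls were MMP9 (-3.86, limma adjusted p = 0.00459), ADAM10 (-1.28, 0.00167), CTSB (-0.78, 0.00815), SERPINF1 (-2.57, 1.32e-05), VCAN (-1.62, 0.00134) and FOSB (-4.83, 5.62e-07), and no other ADAMTS protease was called lower. The RARRES1 call was lost without the day 0 array of donor 3, the chondrocyte array of donor 2 or 3 (adjusted p 0.0710 to 0.101), or both low-control arrays (0.0591).

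**Figure D4:**
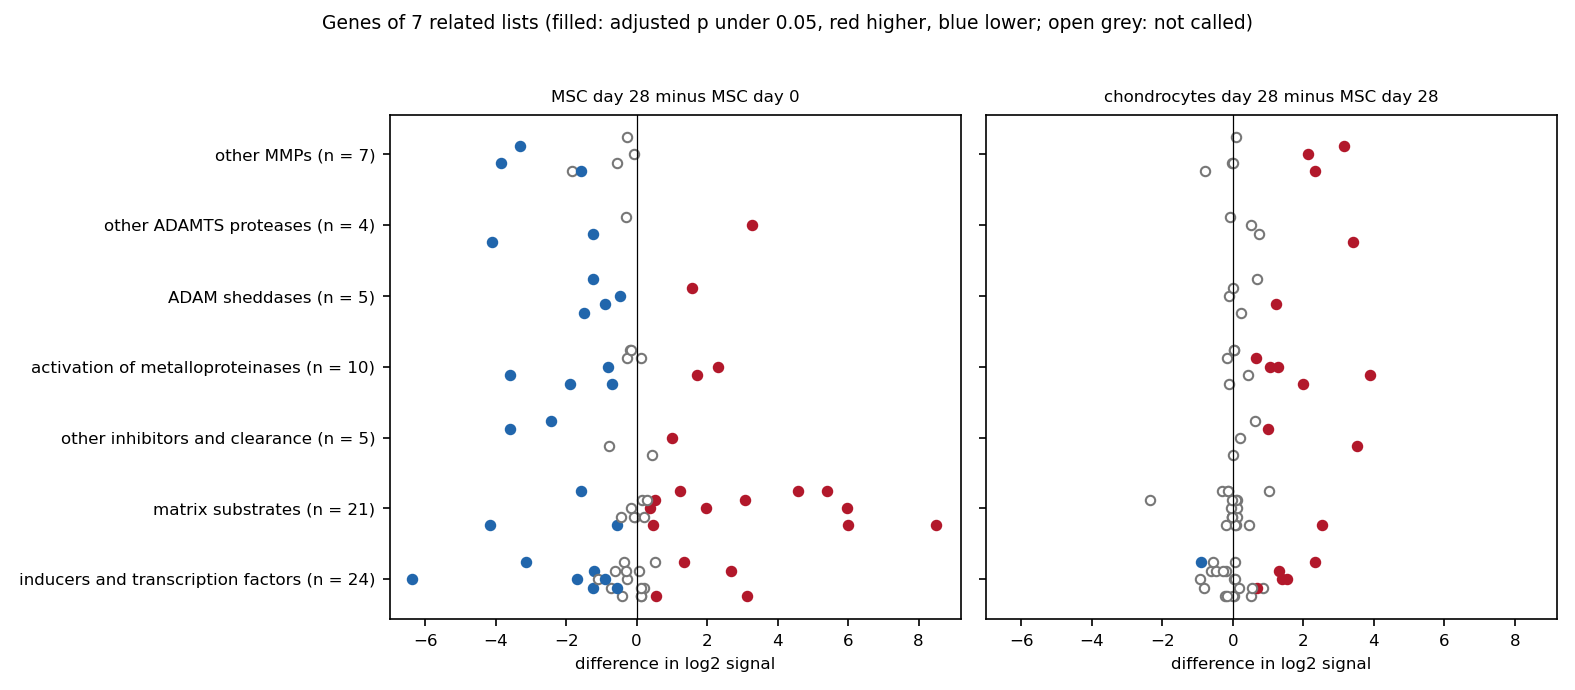
Difference in log2 signal (horizontal axis) of each measured gene in the 7 lists (vertical axis, with the number measured) in day 28 against day 0 MSCs and in chondrocytes against MSCs at day 28, with filled points for calls at an adjusted p under 0.05. The list of other MMPs has 3 filled points, all lower, in the first panel and 3, all higher, in the second.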

How the data were processed

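RNA was trizol-extracted, primed with poly(T), amplified linearly and biotin-labelled, per the labels' protocols, which weights signal towards 3′ ends. The deposited values are log2 signals made by the authors with RMA, per the submitters' processing notes. Its version is not given in the sources used here. RMA brings arrays to one distribution, so a change in total RNA per cell cannot be seen.

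From 24128 deposited probe sets, 112 controls were removed. Symbols came from the platform annotation: 13292 probe sets had 1 symbol, 86 several and 10638 none. RefSeq (ARS-UCD2.0) served for names and gene order only. One group-means model over the 9 arrays was fitted with limma 3.58.1 (R 4.3.3; lmFit, contrasts, eBayes), with Benjamini-Hochberg adjustment over 24016 probe sets per comparison, and was tested on simulated data. Donors pair the samples: deviations from group means correlated at 0.108 to 0.412 within donors and -0.303 to 0.152 between them. The donor block was an alternative.

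Members, lists and the rule for named genes were chosen with earlier results of these data known. Named were all 10 genes, per list and comparison the called genes with the largest rise and fall, and the nearest 2 genes of each member. ADAMTS2, ACAN, IL1A, IL1B, TNF and OSM were named outside this rule. Other exceptions are stated where they occur. Alternatives were 3 other scalings, 2 signal filters, trended robust variances, array weights, the donor block, the compared groups alone, the low-control arrays left out or as a batch, each donor or array left out, and another choice of probe set per gene.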

Additional observations from a re-analysis of the deposited data

How the results depend on the processing

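Of 29 called differences among the 20 probe sets, 15 were lost under no alternative and 0 reversed. Of 31 that were not called, 6 were called under some alternative. Called genes among the 10 numbered 7, 5 and 5 in the 3 comparisons, in the order given above. With only probe sets at or above the median signal, which removes dimmer genes from the test, they were 4, 3 and 1. With the compared groups alone the second was 3. Without both low-control arrays the second was 2 and the third 3, with low controls as a batch block the third was 3, and with arrays centred on ribosomal protein genes the third was 3. Centring on 64 ribosomal protein genes put the median of all probe sets at -0.03, 0.14 and 0.12, and centring on the array median at -0.11, -0.09 and -0.19. With the donor as a replicate block the counts were 8, 5 and 5, and among the 20 probe sets the block changed the calls of TIMP3 and of the third TIMP4 probe set only. With 1 donor or 1 array left out, they ranged from 4 to 7, 1 to 5 and 2 to 5, calls over all probe sets (7256, 2482 and 7445) from 4292 to 7010, 747 to 2598 and 3344 to 7794, and those in the 7 lists (45, 19 and 31) from 30 to 42, 7 to 19 and 21 to 33. The lowest counts came without all arrays of donor 1, except for the 10 genes in the first comparison (donor 3) and the third (chondrocyte array of donor 3). The balance of proteases against TIMPs (-0.97, 0.72 and -0.24) ranged from -1.27 to -0.55, 0.40 to 0.93 and -0.57 to 0.11, the last reversing without donor 2. With the mean of all probe sets it was -0.41 in the first comparison and 0.042, reversed, in the third, and without MMP1 and MMP3 it was 0.10 in the second. In alternatives chosen after seeing the data, it was 0.13 in the second and -1.03 in the third without MMP1 and ADAMTS4, and 0.046 and -1.14 without MMP3 and ADAMTS4. No alternative left TIMP4 out of the balance. Where no construction is named, the cause was not tested. Fits with arrays left out rest on fewer arrays.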
